A study of Rattus norvegicus with 10 samples.

Results

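The 10 genes followed here belong to the S100 and annexin families of calcium-binding proteins and were read in rat left ventricle: S100a1, S100a4, S100a6, S100a10, S100a11, S100b, Anxa1, Anxa2, Anxa3 and Anxa5. Every probe set, the group of short probes that reads a transcript, was taken where the platform annotation named 1 of these genes alone, which gave 14 probe sets of 31042 on the array and 10 genes of 14217 named. Transcript levels were read on Affymetrix rat whole-genome arrays in 5 samples given the gene for GATA-4, a DNA-binding protein that drives genes of heart muscle, and in 5 given LacZ, a bacterial enzyme gene that serves as the control transfer. All 10 samples were left ventricle of male Sprague-Dawley rats of 250 to 300 g, collected on day 3 after gene transfer; the labels name neither an age, a delivery vehicle, an injection site nor the animal behind a sample, so p-values measure the spread between these samples. Array numbers 1 to 5 only name the samples of a group and pair nothing.

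S100 proteins are small calcium sensors that act mostly as pairs: when calcium binds, they expose a surface that grips other proteins. Annexins bind membranes rich in acidic phospholipids in the presence of calcium, and serve in membrane repair, vesicle traffic and the surface binding of proteases. The families meet directly, since S100A10 holds annexin A2 in a complex at the plasma membrane that binds plasminogen, and S100A11 binds annexins A1 and A2. In the heart, S100A1 belongs to the muscle cell and tunes calcium release and uptake, while S100A4, S100A6, S100A10 and S100A11 are found in many cell types of connective tissue, vessels and blood.

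Values below are log2 signals, quantile normalized so that the 10 arrays share 1 distribution. A log2 difference of 1 is a doubling, and levels are not set against each other between probe sets, which differ in how well they bind. The array's mean signal, trimmed by 2% at each end, came to 142.3 on the dimmest, GATA-4 array 1 (the dim array from here on), and 249.2 to 328.7 on the other 9. The transferred gene bore out the labels: Gata4 was higher on all 5 GATA-4 arrays, at 11.44 ± 0.14, than on any LacZ array, at 10.65 ± 0.13 (SD, n = 5). Muscle markers were bright in both groups, as in Myl2, the ventricular myosin light chain, at 13.46 and 13.44. In bulk tissue, fewer cells of a type and less RNA per cell cannot be told apart.

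Sequences before a transcript start are shown for the members that rose and, for comparison, for Anxa5, which did not, because GATA-4 is a DNA-binding factor. Each is the 250 bases before the 1 start site that the promoter table, from RefSeq on assembly GRCr8, gives for the gene, written 5′ to 3′ along the gene, with matches to the motifs searched in capitals. For S100a11 and Anxa2 that site is the outer end of the annotated gene. For S100a6 and Anxa5 it lies 348 and 239 bases inside that end, so that all 250 bases of the S100a6 window and 239 of the Anxa5 window are within the annotated gene, and the sequence before their outermost starts was not used here.
S100a6, chr2:178398287-178398536, plus strand: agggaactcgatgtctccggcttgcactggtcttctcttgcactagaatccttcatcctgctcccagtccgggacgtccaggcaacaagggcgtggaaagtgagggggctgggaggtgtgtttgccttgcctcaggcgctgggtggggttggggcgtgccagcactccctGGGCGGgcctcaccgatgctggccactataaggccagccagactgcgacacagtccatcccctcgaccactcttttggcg
S100a11, chr2:181874882-181875131, plus strand: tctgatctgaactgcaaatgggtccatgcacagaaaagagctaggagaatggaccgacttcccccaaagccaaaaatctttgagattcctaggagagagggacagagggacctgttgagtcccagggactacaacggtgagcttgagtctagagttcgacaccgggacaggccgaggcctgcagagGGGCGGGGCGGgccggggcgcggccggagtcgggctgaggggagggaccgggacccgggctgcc
Anxa2, chr8:78986002-78986251, plus strand: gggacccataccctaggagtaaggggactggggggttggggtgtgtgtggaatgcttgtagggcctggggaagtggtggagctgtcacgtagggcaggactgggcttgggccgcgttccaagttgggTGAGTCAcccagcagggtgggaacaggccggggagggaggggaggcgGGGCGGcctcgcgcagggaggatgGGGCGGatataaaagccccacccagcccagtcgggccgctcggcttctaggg
Anxa5, chr2:121272697-121272946, minus strand: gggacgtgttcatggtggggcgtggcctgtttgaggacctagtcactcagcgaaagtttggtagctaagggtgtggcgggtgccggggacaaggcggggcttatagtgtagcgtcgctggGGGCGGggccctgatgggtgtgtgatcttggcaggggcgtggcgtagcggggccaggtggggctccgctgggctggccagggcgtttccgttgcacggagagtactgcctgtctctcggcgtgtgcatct
Promoters of 8 of the 10 members were matched in the table, all but S100a1 and S100a10; the windows of Anxa1, Anxa3 and S100b also lie within the annotated gene, by 250, 81 and 78 bases. The motifs were searched on both strands. The GATA motif (the letters AGATAA or AGATAG or TGATAA or TGATAG) was in 27% of the 33469 rat promoters of this length and in 0 of the 8. The AP-1 motif (TGACTCA or TGAGTCA, each the other's reverse complement) was in 4.05% of all promoters and, among the members, in Anxa2 alone, where it begins 123 bases before the start. The GC box (GGGCGG) was in 30.5% of all promoters and in 5 of the 8, those of S100a6, S100a11, Anxa2, Anxa3 and Anxa5. These 4 printed windows are between 62% and 67.2% G or C, against a median of 51.2% over all promoters. The GC box is made of these bases, while the letters of the GATA motif are mostly A and T. A match describes the letters of this window only and is not evidence of binding. The lack of a match is likewise not evidence against binding, in this window or elsewhere.

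The groups were compared to see which members differ after the transfer. S100a6 rose 1.47-fold, Anxa2 1.31-fold and S100a11 1.26-fold, and in each all 5 GATA-4 arrays lay above all 5 LacZ arrays. S100a10, the partner of annexin A2, read 1.37-fold higher without passing the test, and Anxa5 was nearly level between the groups. Of the 9 members whose brightest probe set passed the filter on mean signal, 3 rose and 0 fell in limma. Over the 10688 genes tested, 3.71% rose and 2.66% fell. At an unadjusted p under 0.05, 4 members were higher and 0 lower, where 12% of all genes were higher. Groups did not overlap, with GATA-4 higher, in those 3 members and in 4.56% of all genes. The median difference of the 9 was 0.27, with 7 above 0, where the median of all genes was -0.02 and 47.4% were above 0.

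These 3 calls depended on how the arrays were put on 1 scale and on the variance model. With each array centred on its median instead, 0 of the 9 members rose in limma (3 at an unadjusted p under 0.05), and 2.07% of all genes rose. The adjusted p-values were then 0.0968 for S100a6, 0.151 for Anxa2 and 0.168 for S100a11, with differences of 0.48, 0.27 and 0.23 that kept their sign. In the signals as deposited 0 rose (0 at an unadjusted p under 0.05) and 0.0655% of all genes did, the adjusted p being 0.993 for each of the 3. Without limma's intensity trend 0 rose (4 at an unadjusted p under 0.05), with adjusted p-values of 0.0523, 0.0508 and 0.0508, and 2.37% of all genes rose. With median centring and the dim array left out, a setting chosen after seeing the data, S100a6 alone passed, and 7.56% of all genes rose. In the deposited signals without the dim array, chosen at the same time, 4 members rose, S100a6, S100a10, S100a11 and Anxa2 (adjusted p = 0.0106, 0.00593, 0.0346 and 0.0198), and 10.2% of all genes did.

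**Figure D1:**
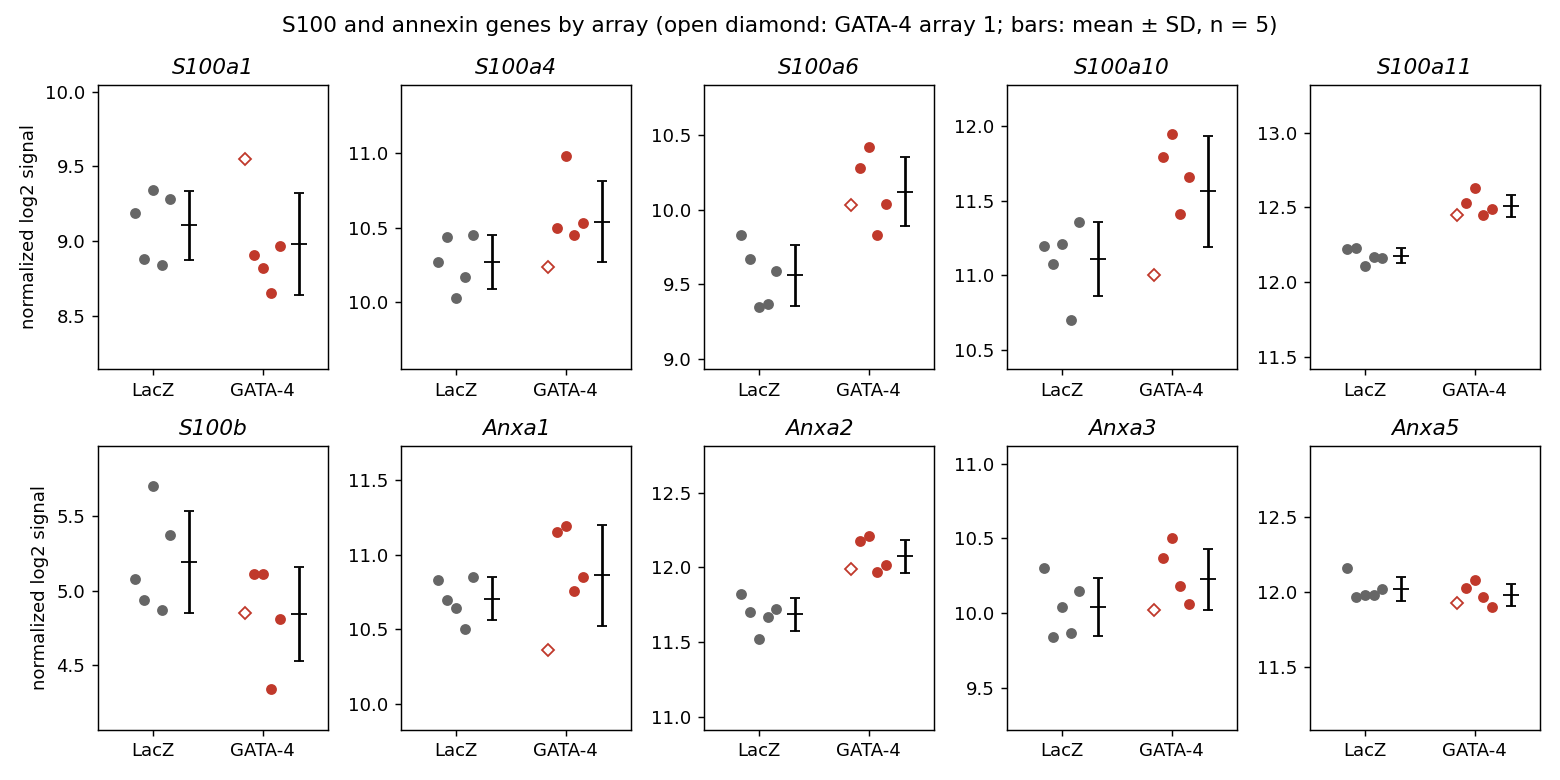
Normalized log2 signal of each member's brightest probe set on each array, LacZ in grey and GATA-4 in red, with mean ± SD (n = 5) at the right of each group and the dim GATA-4 array 1 as an open diamond; every panel spans the same number of log2 units. In S100a6, S100a11 and Anxa2 the 5 red points lie above the 5 grey points, while in S100a10 the open diamond lies among the grey points.

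S100a11 showed the tightest groups among the members that rose. Its log2 signals were 12.22, 12.23, 12.11, 12.17 and 12.16 on LacZ arrays 1 to 5 and 12.45, 12.53, 12.63, 12.45 and 12.49 on GATA-4 arrays 1 to 5. The groups did not overlap, and the dim array sat with the other GATA-4 arrays. Means were 12.51 ± 0.08 for GATA-4 against 12.18 ± 0.05 for LacZ (SD, n = 5), a rise of 0.33 (SE 0.05; 95% interval 0.22 to 0.44) with a limma adjusted p of 0.00708. The exact two-sided permutation p was 0.00794, the smallest that 5 against 5 arrays can give. S100A11 is a partner of annexins A1 and A2 in membrane repair and growth control.

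Anxa2, the annexin of the plasma membrane complex with S100A10, had log2 signals of 11.82, 11.70, 11.52, 11.67 and 11.72 with LacZ and of 11.99, 12.18, 12.21, 11.97 and 12.02 with GATA-4. Again the groups did not overlap, though LacZ array 1 and GATA-4 array 4 came close. The rise was 0.39 (SE 0.07; 95% interval 0.24 to 0.54), with a limma adjusted p of 0.0133 and an exact permutation p of 0.00794. Both S100a11 and Anxa2 passed in all 10 fits that left out 1 array, with adjusted p-values up to 0.0307 and 0.0459. A second Anxa2 probe set was too dim for the filter, at 4.87 ± 0.25 on GATA-4 arrays against 4.68 ± 0.61 on LacZ arrays (SD, n = 5; exact permutation p = 0.556). Its 5 GATA-4 values all lay within the LacZ range.

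S100a10, which unlike its relatives does not bind calcium, read 11.20, 11.08, 11.21, 10.70 and 11.36 with LacZ. With GATA-4 it read 11 on the dim array and 11.79, 11.95, 11.41 and 11.66 on arrays 2 to 5. Of the GATA-4 arrays 4 lay above all LacZ arrays and the dim array lay within them. The difference of 0.45 (SE 0.17; 95% interval 0.09 to 0.81) had a limma adjusted p of 0.131 and an exact permutation p of 0.0714. Without the dim array it was 0.59 with an adjusted p of 0.00971. That fit called 4 of the 9 members higher, S100a10 with the other 3, while 9.95% of all genes were called higher in it. Leaving out a GATA-4 array that sits with the LacZ arrays widens such a difference by itself.

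S100a6, calcyclin, is a small S100 protein known for its induction when resting cells are stimulated to divide. Its signals were 9.83, 9.67, 9.35, 9.37 and 9.59 with LacZ and 10.03, 10.28, 10.42, 9.83 and 10.04 with GATA-4. LacZ array 1 and GATA-4 array 4 read the same to 2 decimals and met at the border of the groups. S100a6 had the widest difference among the members, 0.56 (SE 0.13; 95% interval 0.28 to 0.83; exact permutation p = 0.00794), with a limma adjusted p of 0.0278. Its call rested on single arrays. The adjusted p was 0.0911, 0.0694 and 0.0645 without LacZ arrays 3, 4 and 5, and 0.0543, 0.0676 and 0.0517 without GATA-4 arrays 2, 3 and 5, while the difference stayed between 0.48 and 0.63 over the 10 fits. The sample numbers of GATA-4 arrays 4 and 5 do not adjoin those of the remaining 8, and no batch is labelled. Without both, S100a6, Anxa2 and S100a11 were again the 3 members called, S100a6 at an adjusted p of 0.0499, and 1.03% of all genes rose.

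S100a4, known as a fibroblast and leukocyte protein that binds non-muscle myosin, read 10.27, 10.44, 10.03, 10.17 and 10.45 with LacZ and 10.24, 10.50, 10.98, 10.45 and 10.53 with GATA-4. GATA-4 array 3 stood highest and the dim array lay within the LacZ range. The difference of 0.27 (SE 0.13; 95% interval -0.01 to 0.55) did not pass, with a limma adjusted p of 0.245 and an exact permutation p of 0.0714. In the genome S100a4 and S100a6 lie in the S100 cluster of rat chromosome 2 with 1 protein-coding gene, S100a5, between them, and S100a11 and S100a10 lie next to each other on the same chromosome. Members that passed and members that did not thus lay close together in both places.

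S100a1, the member made in heart muscle cells, read 9.19, 8.88, 9.34, 8.84 and 9.28 with LacZ and 9.55, 8.91, 8.82, 8.65 and 8.97 with GATA-4. The dim array was the highest of all 10, and GATA-4 arrays 2 to 5 lay below the LacZ median of 9.19. The difference was -0.12 (SE 0.16; 95% interval -0.48 to 0.23; limma adjusted p = 0.709), and -0.26 without the dim array, with an adjusted p of 0.16. S100b, best known from glia and Schwann cells, was dim, at 4.84 ± 0.31 on GATA-4 arrays against 5.19 ± 0.34 on LacZ arrays (SD, n = 5; exact permutation p = 0.143). It fell under the filter, whose limit was a mean log2 of 5.17, and in a fit with no filter its difference of -0.35 had a limma adjusted p of 0.567.

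Among the remaining annexins, Anxa1 encodes the protein through which glucocorticoids restrain leukocytes, acting on formyl peptide receptors. It read 10.83, 10.70, 10.64, 10.50 and 10.85 with LacZ and 10.36, 11.15, 11.19, 10.76 and 10.85 with GATA-4. Here the dim array was the lowest of all 10, and GATA-4 arrays 2 and 3 stood above the rest. The difference of 0.16 (SE 0.14; 95% interval -0.15 to 0.46) had a limma adjusted p of 0.547, and without the dim array 0.28 with 0.0795. Anxa5, the annexin used to stain dying cells because it binds phosphatidylserine, read 12.16, 11.97, 11.98, 11.98 and 12.02 with LacZ and 11.93, 12.03, 12.08, 11.97 and 11.90 with GATA-4. Its difference was -0.04 (SE 0.06; limma adjusted p = 0.73), and the 95% interval ran from 0.891-fold to 1.06-fold, so that a change as large as those of Anxa2 or S100a11 lay outside it.

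Anxa3, an annexin found in neutrophils and endothelium, had 4 probe sets, all of which passed the filter. The brightest read 10.30, 9.84, 10.04, 9.87 and 10.15 with LacZ and 10.02, 10.37, 10.50, 10.18 and 10.06 with GATA-4, and the groups overlapped. Its difference was 0.19 (SE 0.12), with a limma adjusted p of 0.379. The other probe sets, at mean levels of 5.42 to 7.29 with LacZ, differed by -0.04, 0.16 and 0.39, with adjusted p-values of 0.894, 0.70 and 0.334. The 4 did not share a sign, and none passed. The one below 0 is of a design whose probes can match more than 1 transcript.

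**Figure D2:**
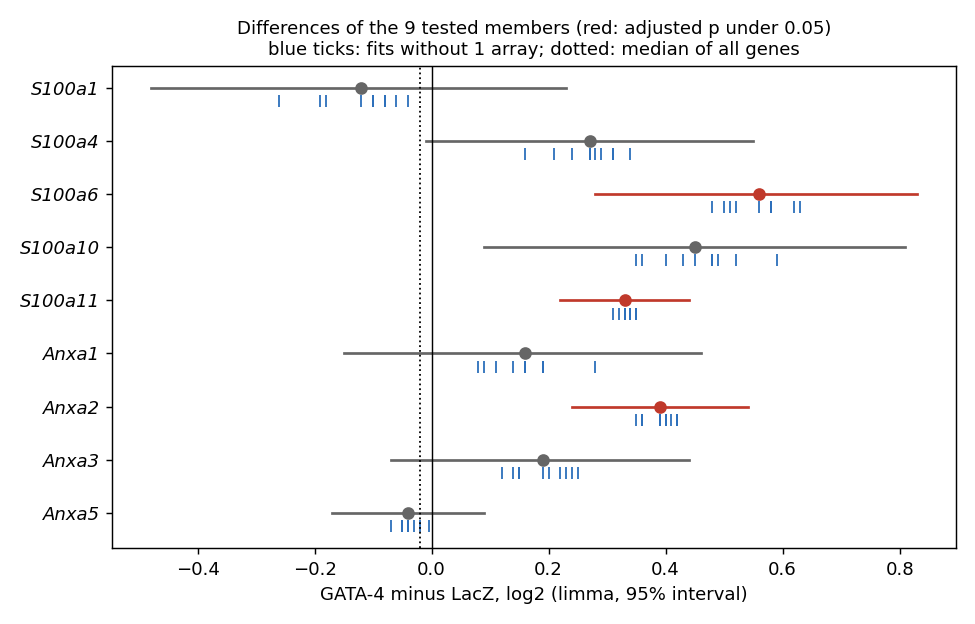
Difference between GATA-4 and LacZ in log2 for the 9 tested members, with limma's 95% interval (red where the adjusted p was under 0.05), the 10 fits without 1 array as blue ticks, and the median of all genes, -0.02, as a dotted line. S100a6, S100a11 and Anxa2 are red, and the ticks of S100a11 span 0.31 to 0.35, the narrowest range among the 3.

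Across arrays the members did not vary as 1 block. S100a11, Anxa2, S100a6, S100a10, S100a4, Anxa1 and Anxa3 all stood highest on GATA-4 array 3, as did Anxa5 among the GATA-4 arrays. The dim array split them: it was above all LacZ arrays for S100a11, Anxa2 and S100a6, inside their range for S100a10, S100a4 and Anxa3, and below it for Anxa1 and Anxa5. S100a1 ran the other way, highest on the dim array. The median difference of the 9 members was 0.33 without the dim array and 0.27 with it.

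**Figure D3:**
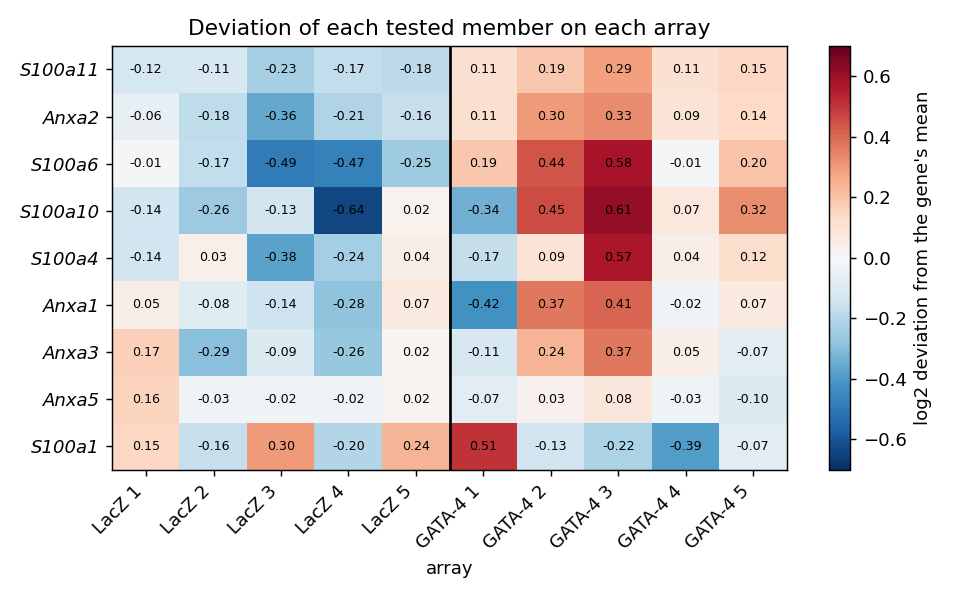
Each tested member's log2 deviation from its own mean over the 10 arrays, red above and blue below, with LacZ arrays left of the black line and GATA-4 arrays right of it. The column of GATA-4 array 1, the dim array, is positive for S100a11, Anxa2 and S100a6 and negative for S100a10 and Anxa1, and S100a1 has its highest value there.

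Likeness of pattern was measured as the root mean square difference between the log2 deviations of a pair of genes over the 10 arrays, where a small value means that they rose and fell by the same amounts on the same arrays. This describes the 10 arrays, and part of it is the group difference that the genes share. Genes were not scaled to equal spread. A gene that did not vary would stand 0.175 from S100a11, 0.219 from Anxa2 and 0.339 from S100a6. Among 10679 genes that are not members, the nearest to S100a11 were Pdia6, Shc1, Cttn, Sf3a3 and Rpl3, at 0.046 to 0.062, where the median gene stood at 0.291. Nearest to Anxa2 were Preb, Tpm4, Stmn1, Lrrc59 and Lta4h, at 0.058 to 0.066 against a median of 0.317. S100a11 and Anxa2 were 0.066 apart, as near as the fifth gene of the Anxa2 list. S100a6 had Cd33, Vkorc1l1, Nme1, Fkbp11 and Dynlt1 nearest, at 0.085 to 0.107 against a median of 0.408, and stood 0.138 from Anxa2. S100a10 stood 0.249 from Anxa2, its partner in the plasma membrane complex, farther than S100a6 or S100a4 did. That distance also holds the wider spread of S100a10. Its SDs were 0.37 with GATA-4 and 0.25 with LacZ, against 0.12 and 0.11 for Anxa2 (n = 5).

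Of the other S100 genes, 6 of 9 on the array were tested (S100pbp, a binding protein named with them, is 1 of the 6). In limma 0 of the 6 changed, with 1 higher at an unadjusted p under 0.05. Over all genes 3.71% rose and 2.66% fell, and 12% were higher at an unadjusted p under 0.05. Among the 6 the widest differences were those of S100a8 and S100a9, the paired alarmins of neutrophils and monocytes. They were 1.42 (SE 0.64, limma adjusted p = 0.212) and 1.21 (SE 0.77, limma adjusted p = 0.387). S100a9 read 5.95 on the dim array, below the LacZ range of 6.96 to 9.27, while GATA-4 arrays 2 to 5 held 9.85 to 10.62. Both S100a8 and S100a9 rose once the dim array was left out, by 2.02 and 2.07, with adjusted p-values of 0.0145 and 0.00684 in limma. That fit called 9.95% of all genes higher, and leaving out a low GATA-4 array widens such differences by itself. Of the other annexins, 4 of 6 were tested and Anxa7, a membrane fusion protein also called synexin, rose 1.38-fold (difference 0.47, SE 0.11; adjusted p = 0.0314). Its groups did not overlap, at 9.82 to 10.39 with GATA-4 and 9.45 to 9.77 with LacZ. A dimmer Anxa7 probe set differed by 0.11 and did not pass. The Anxa7 call was lost without LacZ arrays 2, 3, 4 or 5 (adjusted p = 0.056, 0.101, 0.0743 and 0.076) and without GATA-4 arrays 3 or 5 (0.0676 and 0.0502), and under centring on the median. Anxa4, Anxa6 and Anxa11, by their brightest probe sets, differed by 0.22, -0.01 and -0.06 and did not pass. A dimmer Anxa4 probe set differed by 0.39 and did not pass either (limma adjusted p = 0.0904, exact permutation p = 0.00794). Its groups did not overlap, at 8.66 to 9.21 with GATA-4 and 8.28 to 8.55 with LacZ.

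The list of receptors and binding partners had 29 genes on the array and 28 tested, of which 3 rose and 2 fell, with a median difference of 0.09, where 3.71% of all genes rose and 2.66% fell. Plaur, the receptor that holds urokinase at the cell surface, rose 2.14-fold (difference 1.10, SE 0.19; adjusted p = 0.0112 in limma). Its signals were 5.92, 5.97, 5.79, 6.05 and 5.26 with LacZ and 6.94, 6.42, 7.31, 6.80 and 7.02 with GATA-4, so the groups did not overlap, and it passed in all 10 fits without 1 array. This Plaur probe set is of the design whose probes can match more than 1 transcript. Another Plaur probe set lay near the floor, at 0.49 with GATA-4 and 0.64 with LacZ, too dim to test. Plau, urokinase, the protease that makes plasmin, rose 1.83-fold (adjusted p = 0.0474), but passed in only 1 of those 10 fits, the one without the dim array, the other adjusted p-values running from 0.0579 to 0.127. Plat, the tissue activator known to bind the annexin A2 complex, differed by 0.09 and did not pass. Ctsb, the lysosomal protease cathepsin B, rose 1.18-fold (limma adjusted p = 0.0278). It missed the threshold without LacZ arrays 1, 3 or 5 (0.0698, 0.0928 and 0.0678) or GATA-4 arrays 3, 4 or 5 (0.0672, 0.0631 and 0.0545). Plau and Ctsb also missed it under median centring (0.0548 and 0.293), without the intensity trend (0.0665 and 0.13) and with no filter (0.0878 and 0.0844). In the deposited signals Plaur, Plau and Ctsb all missed it (0.782, 0.993 and 0.993). Ctsb missed it there without the dim array too (0.0654), and under median centring without that array (0.277). Among the muscle genes of this list, Casq2 and Ttn, calsequestrin and titin, fell by 0.31 and by 0.27 in log2 signal (limma adjusted p = 0.00786 and 0.00957), while Ryr2, Atp2a2 and Pln, by their brightest probe sets, did not pass. Both calls held in the 10 fits without 1 array and were lost in the deposited signals with and without the dim array (0.993 for both with it, and 0.0572 and 0.151 without it) and without the intensity trend (0.0622 and 0.088). The Ttn call was also lost under median centring (0.0634) and the Casq2 call without GATA-4 arrays 4 and 5 (0.0516). A second Casq2 probe set differed by -0.16 and did not pass. With the dim array left out 6 of the 28 rose and 4 fell, where 9.95% of all genes rose and 8.86% fell. Without GATA-4 arrays 4 and 5, 0 rose and 1 fell, where 1.03% and 0.355% of all genes did.

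Marker genes of the cell types that ventricle can hold moved unequally, and their part in the members' differences was not tested. Of all genes 3.71% rose and 2.66% fell. Macrophage and monocyte markers rose in 9 of 16 and fell in 0, and their summed normalized signal was 28200 to 36100 with GATA-4 against 20700 to 24600 with LacZ, with no overlap and the lowest marker, Cd163, at 7.06 and 6.70. Markers of dividing cells rose in 6 of 14, with summed signals of 3760 to 5950 against 3400 to 3930, the dim array being the one inside the LacZ range. Neutrophil markers, 5 tested of 9 on the array, rose in 3, Csf3r, Il1r2 and Lcn2, while S100a8 and S100a9 did not pass. Their summed signal was 2650 to 8450 against 1730 to 3220, with Lcn2, at 12.15 and 10.83, the gene of highest signal in it. Camp, a granule gene, was near the floor at 1.97 and 1.67. Fibroblast markers rose in 1 and fell in 1 of 14, at 58400 to 67800 against 55300 to 62400. Endothelial markers (9 tested) and smooth muscle markers (8) had 0 changed in limma, with 3 and 0 at an unadjusted p under 0.05, and ranges that overlapped. Mesothelial and epithelial markers, 3 tested of 9, had 1 rise, Krt18, at 7.28 with GATA-4 and 3.54 with LacZ. Its LacZ mean lay under the filter limit of 5.17, so Krt18 entered the test only through its GATA-4 signals. The others tested, Wt1 and Lrrn4, differed by -0.51 and -0.22 and did not pass. The summed signal over all 9, Krt18 and the markers too dim to test included, was 524 to 781 against 364 to 523. These ranges all but touched. Schwann and glial markers, 5 tested of 8 on the array, had 0 changed and 1 at an unadjusted p under 0.05, beside an S100b that did not pass. Of 15 cardiomyocyte markers 1 fell, Casq2, and the summed signal was 144000 to 154000 against 149000 to 154000. With the dim array left out, markers that rose numbered 13 of 16 for macrophages, 13 of 14 for dividing cells, 5 of 5 for neutrophils and 4 of 14 for fibroblasts. That fit called 9.95% of all genes higher and 8.86% lower. In the same fit 1 fibroblast marker, Dpt, fell. Endothelial markers fell in 2, smooth muscle markers fell in 1 and Schwann and glial markers rose in 1. Without GATA-4 arrays 4 and 5 the counts that rose were 5, 1, 0 and 1 for the first 4 lists, and Casq2 was not called. Krt18 fell under the filter in that fit and was not tested, which left 2 mesothelial and epithelial markers tested. There 1.03% of all genes rose and 0.355% fell.

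**Figure D4:**
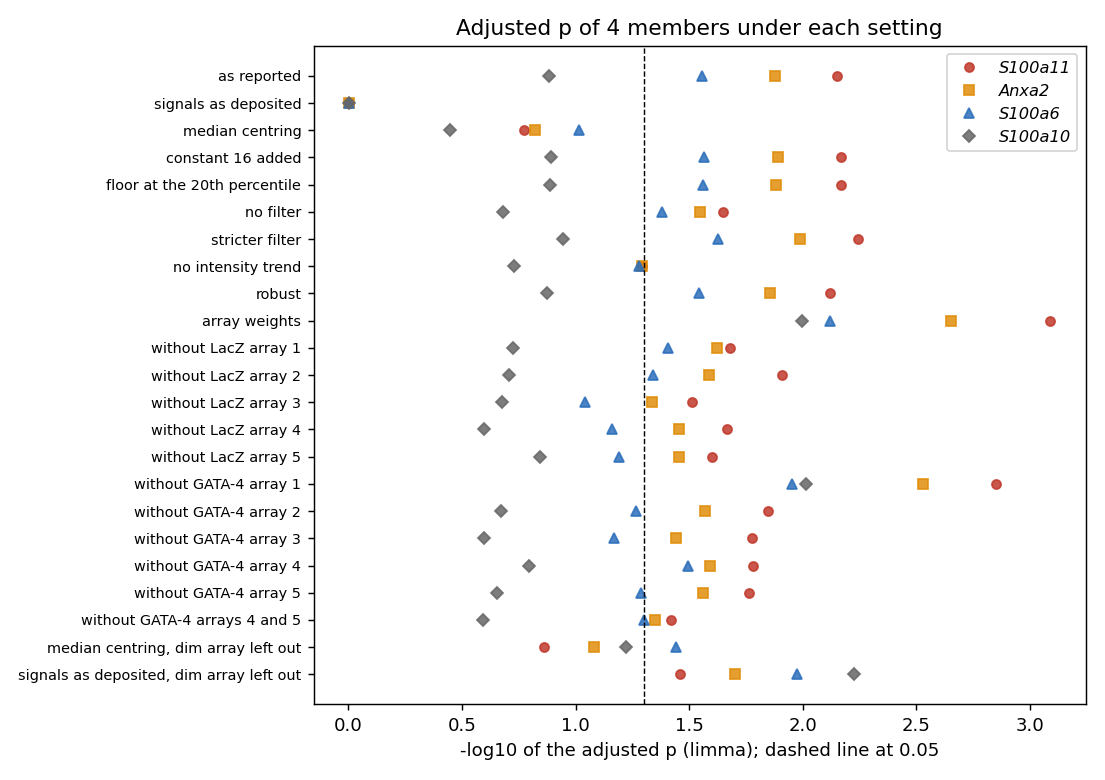
Adjusted p of limma on a -log10 scale for S100a11, Anxa2, S100a6 and S100a10 under each processing setting, with the dashed line at 0.05 and calls to its right. S100a11 and Anxa2 lie right of the line in all 10 fits without 1 array and left of it under median centring, while S100a10 crosses it without GATA-4 array 1, with array weights and in the deposited signals without the dim array.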

How the data were processed

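The authors deposited 1 table of probe set intensities on a linear scale for the 10 arrays, which the submitters' processing notes credit to GCOS, the maker's array software; the sources used here do not state its version, summary method or scaling. Values of the 31042 probe sets that are not controls were taken to log2, quantile normalized and floored at a log2 of 0. Probe sets with a mean above the 40th percentile, 18625, went into limma 3.58.1 (R 4.3.3; lmFit and eBayes, intensity trend, no covariates), two-sided, with Benjamini-Hochberg adjustment over all of them and a threshold of 0.05. The fit was tested on simulated data. Exact two-sided permutation tests used all 252 assignments of the arrays. Symbols came from GEO's platform annotation, updated by gene ID from RefSeq (GRCr8; 20764 of 21268 matched). The brightest probe set stands for its gene.

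Groups came from the source labels. No 2 arrays were identical (pairwise r of log2 signals 0.927 to 0.955). The members, the lists of related genes and of markers, and the rule for naming genes (the members, the changed genes of the related lists, and the 5 genes most like each of 3 changed members) were chosen with earlier results of these data known. Other related genes, such as S100a8 and Anxa4, were named after their values were seen. Alternatives were the deposited signals, median centring, 16 added before log2, a floor at the 20th percentile, no filter, a filter at the 60th percentile, no trend, robust limma, array weights (statmod 1.5.0), other probe sets, leaving out each array, and leaving out GATA-4 arrays 4 and 5. A further pair, median centring and the deposited signals without the dim array, was chosen after seeing the data. The number of arrays limits the precision.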

Additional observations from a re-analysis of the deposited data

Results flagged for a closer look

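Anxa5 on LacZ array 1 read 12.16, apart from the 11.97 to 12.02 of the other LacZ arrays, a gap of 0.714 of the group's range where the limit for 5 samples is 0.71. It was the only such array in the 28 groups of 5 tested over the 14 probe sets of the members, and chance gives about 1 in 20. Without that array the Anxa5 difference was -0.0037, with a limma adjusted p of 0.981.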

How the results depend on the processing

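The count of members that rose was 3 as reported, 2 to 4 in the fits without 1 array, 0 in the deposited signals, under median centring and without the intensity trend, 1 (S100a6) under median centring without the dim array and 4 in the deposited signals without it, both added after seeing the data; no member fell in limma under any setting, with at most 1 lower at an unadjusted p under 0.05. For S100a6, Anxa2 and S100a11 the differences that missed the threshold were 0.48, 0.27 and 0.23 in the deposited signals, the same 0.48, 0.27 and 0.23 under median centring, and 0.56, 0.39 and 0.33 without the trend. Under median centring without the dim array Anxa2 (0.27, adjusted p = 0.0832) and S100a11 (0.18, adjusted p = 0.138) missed it. S100a10 passed with array weights (0.53), without the dim array, and in the deposited signals without it (0.66). Without 1 array each, differences ran from 0.48 to 0.63 for S100a6, 0.31 to 0.35 for S100a11, 0.35 to 0.42 for Anxa2, 0.35 to 0.59 for S100a10, 0.16 to 0.34 for S100a4, -0.26 to -0.04 for S100a1, 0.08 to 0.28 for Anxa1, 0.12 to 0.25 for Anxa3 and -0.07 to -0.0037 for Anxa5. Signs turned for Anxa3 by its probe set that can match several transcripts (-0.04) and for Anxa5 in the deposited signals without the dim array (0.04). Over the whole array 988 probe sets changed, 566 higher and 422 lower; median centring gave 322 and 401. The count was 174 to 2849 in the fits without 1 array, 201 without GATA-4 arrays 4 and 5, 9 in the deposited signals, 619 with no filter, 539 without the trend, 2890 with array weights, 2616 under median centring without the dim array (1130 higher, 1486 lower) and 1652 in the deposited signals without it (1604 higher, 48 lower). The cause of these moves was not tested. No paired analysis was possible because the labels give the groups no shared replicate numbers.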
